A study of Mus musculus with 11 samples.

Results

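Abi3 and 9 of its neighbours on mouse chromosome 11 were followed in cerebral cortex of 5xFAD mice with and without Abi3. The 10 genes (Abi3, Gngt2, Phospho1, Zfp652, Snf8, Ube2z, Calcoco2, Kat7, Fam117a and Slc35b1) were taken by name and position, although earlier results of these data were known. The study had already listed Gngt2 among the genes lower in its bulk RNA-seq. The genes were matched by symbol to the Ensembl identifiers of the count tables. All 10 were among the 53700 identifiers counted, and 8 had enough reads to be tested among 17626 genes.

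Gene expression was measured by QuantSeq, which reads a short stretch next to the poly(A) end of each messenger RNA. The 11 animals were female mice of 8 months with both C57BL/6 and SJL in their background. All 11 carried the 5xFAD transgenes, human amyloid precursor protein and presenilin genes with familial Alzheimer's disease mutations that are driven in neurons by the Thy1 promoter. The wildtype group (Abi3_WT, n = 6) had both copies of Abi3, and the knockout group (Abi3_KO, n = 5) had none, from a targeted null allele of the C57BL/6N strain crossed into 5xFAD mice of B6SJL origin. There was no group without the transgenes here, so the comparison is between genotypes in amyloid-bearing cortex.

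Abi3 encodes an adaptor of the WAVE regulatory complex, which switches on branching of actin filaments at the cell edge, and in the brain it is known mainly from microglia. Its closest neighbour, Gngt2, encodes a gamma subunit of heterotrimeric G proteins, first described in cone photoreceptors. Neighbours of a deleted gene are examined because a targeted allele can also touch genes that share its exons or its start region.

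In GRCm39, Abi3 (ENSMUSG00000018381) lies on the minus strand of chromosome 11 from 95720900 to 95733302, and Gngt2 (ENSMUSG00000038811) lies on the plus strand from 95725953 to 95736565. The canonical transcripts start only 232 bases apart and run away from each other. Each of the starts lies inside exon 1 of the other gene, so that their first exons share 233 bases on opposite strands. Other annotated Gngt2 transcripts begin further inside Abi3, which makes the gene bodies overlap by 7350 bases. The canonical Gngt2 transcript has 3 exons and ends 3263 bases beyond the outer end of Abi3, and its last exon begins 3007 bases beyond that end. The canonical Abi3 transcript has 8 exons.

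The coding stretches below place the pair on the chromosome. The first is the protein-coding part of Abi3 exon 1, with the start codon in capitals (GRCm39 chr11:95732847-95732972, minus strand), which lies 85 to 210 bases before the canonical Gngt2 start. The second is the coding part of the last Gngt2 exon without its stop codon (GRCm39 chr11:95736309-95736431, plus strand), with the last 4 codons in capitals. These codons form the carboxyl end, which in G protein gamma subunits carries the lipid anchor. This exon is at the 3′ end of the transcript, where QuantSeq reads are expected, and it lies wholly outside Abi3.
Abi3 exon 1, coding part: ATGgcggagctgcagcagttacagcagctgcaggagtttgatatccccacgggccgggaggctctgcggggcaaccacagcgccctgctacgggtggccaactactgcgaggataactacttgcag
Gngt2 last exon, coding part: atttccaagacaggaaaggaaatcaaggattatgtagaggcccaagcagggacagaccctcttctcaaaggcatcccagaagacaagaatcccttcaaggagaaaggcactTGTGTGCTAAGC

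The 250 bases before each canonical start were searched on both strands for short motifs. The window of Abi3 held GAGGAA, a purine-rich core bound by ETS factors such as PU.1 of myeloid cells, at 2 places. Both lay on the strand opposite to that of Abi3, 95 to 90 and 43 to 38 bases before the start. The window of Gngt2 held none, and 23.0% of 21626 promoters of the same length hold at least 1. Both windows held CCAAT once (36.5% of promoters), and neither held TATAAA (11.9%) or GGGCGG (36.4%). No match overlapped another, and these matches describe letters only.

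**Figure D1:**
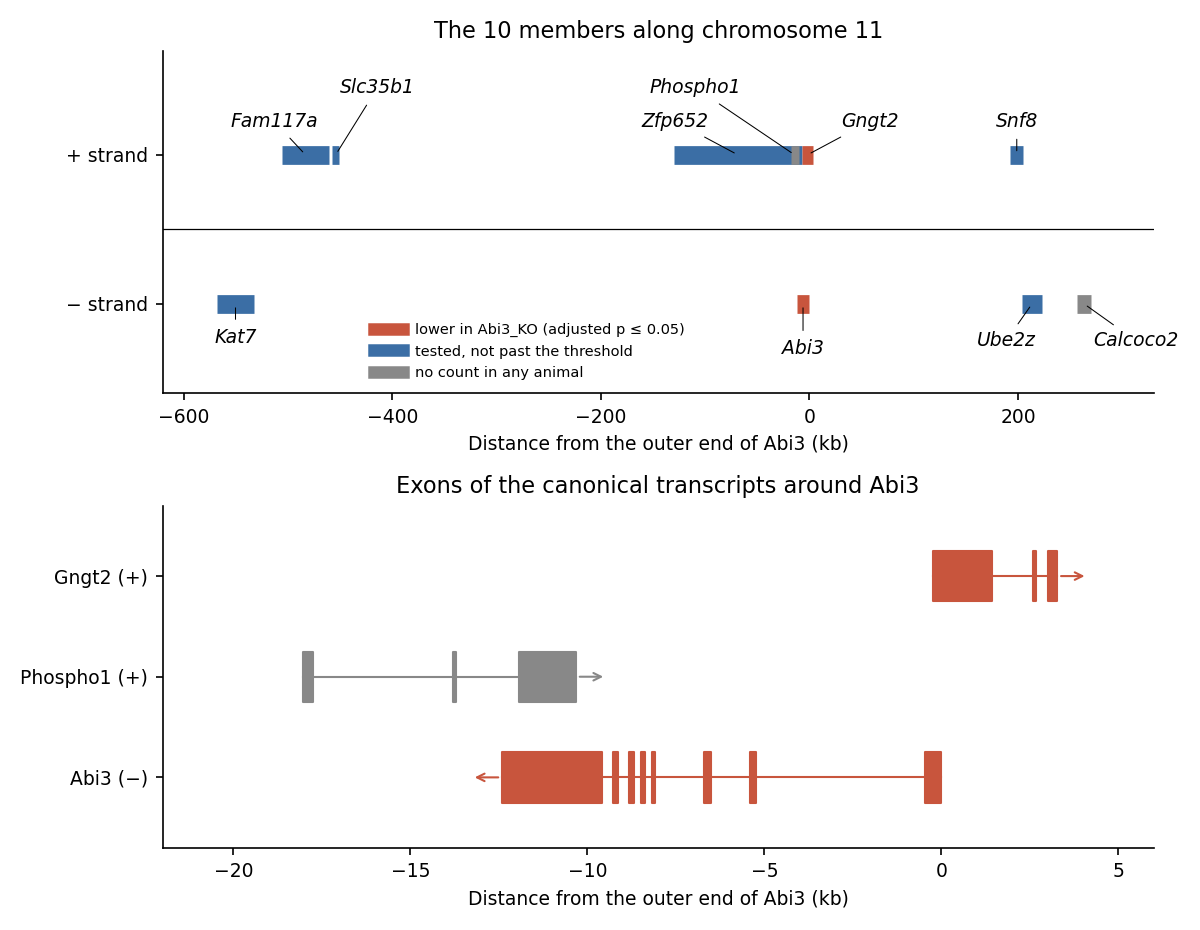
The 10 genes by strand against distance from the outer (5′) end of Abi3 in kb (upper map), and the exons of the canonical Gngt2, Phospho1 and Abi3 transcripts as boxes with arrows for the direction of transcription (lower map). Red marks genes lower in Abi3_KO, blue tested genes not past the threshold and grey genes with no count; the first exons of Abi3 and Gngt2 share 233 bases, and the last exon of Phospho1 lies inside exon 8 of Abi3.

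The depth was 3202310 to 5501958 reads in genes per animal, at which 3 counts, taken as the floor, correspond to 0.545 to 0.937 CPM, that is, scaled by the total of each library. For every 100 reads in genes, 59.3 to 68.8 reads fell outside genes in Abi3_WT and 49.8 to 62.5 in Abi3_KO. This share moved with genotype, and its part in the results below was not tested apart from a fit that held it as a covariate.

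Abi3 itself was assessed first. The Abi3_WT animals had 10 to 38 Abi3 reads each, 128 in total, and the Abi3_KO animals had 0, 2, 0, 0 and 0. In normalized counts (reads divided by a library size factor) the Abi3_WT level was 7.24 at the lowest, 17.3 at the median and 37.7 at the highest. The only Abi3_KO animal with any Abi3 reads, replicate 2, had 2.02 normalized counts. Every Abi3_KO animal was thus below every Abi3_WT animal.

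The mean Abi3 level was 19.4 ± 11.1 (SD) in the 6 Abi3_WT animals and 0.404 ± 0.903 (SD) in the 5 Abi3_KO animals. The difference of -19.0 normalized counts gave p = 0.00433 in a two-sided exact permutation test over animals, which is the smallest value that groups of these sizes allow. Since no Abi3_KO library exceeded 3 reads, the decrease is given as a bound against the floor of each library, and Abi3 was at least 5.86-fold lower. The fitted log2 fold change in DESeq2 was -5.42 (SE 1.05) with an adjusted p of 0.000654, a fitted value that depends on how the zeros are handled. The bounds of the targeted region are given in the study's methods without a genome build and were not placed here. The reads therefore show the loss of Abi3 messenger RNA and do not show which bases were removed.

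Gngt2 was lower as well, and no Gngt2 read was found in any Abi3_KO animal. The Abi3_WT animals had 10, 12, 9, 4, 19 and 1 reads in the order of their replicate numbers, 55 reads among 25280555, against 0 among 17286002 reads in genes in Abi3_KO. The normalized level in Abi3_WT ran from 1.06 through a median of 8.72 to 13.8. The genotypes did not overlap, although the lowest Abi3_WT animal, replicate 6, had a single read and was under the floor of 3.

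The mean Gngt2 level was 7.85 ± 4.82 (SD) in the 6 Abi3_WT animals and 0 in the 5 Abi3_KO animals. For the difference of -7.85 normalized counts the two-sided exact permutation test again gave its smallest possible p, 0.00433. Against the floor the decrease was at least 2.37-fold, a bound set by depth. DESeq2 fitted a log2 fold change of -5.28 (SE 1.20) with an adjusted p of 0.00804. edgeR gave an adjusted p of 0.0449 and limma 0.171. Gngt2 passed in each of the 11 DESeq2 fits that left out 1 animal, with adjusted p from 0.00481 to 0.0418. DESeq2's own filter on low means, at 0.05 or 0.1, gave neither Abi3 nor Gngt2 an adjusted p, so that neither passed with it.

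Within the Abi3_WT group the levels of this gene pair had different orders. The animal with the most Gngt2, replicate 5 at 13.8, had the least Abi3 at 7.24, and the animal with the most Abi3, replicate 1 at 37.7, was second for Gngt2 at 11.4. Replicate 4 was near the middle for Abi3 at 13.6 and next to the lowest for Gngt2 at 3.41. With 1 to 38 reads per gene and animal, counting error is large beside these differences.

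Of the 10 genes, 8 were tested and 2 passed an adjusted p of 0.05 in DESeq2, both lower in Abi3_KO. Over all genes tested the shares were 0.329% in either direction and 0.159% lower. The same 2 genes were the ones with an unadjusted p under 0.05 and the ones whose genotypes did not overlap, against 8.58% and 1.04% of all genes. edgeR called the same pair (0.21% of all genes called) and limma called Abi3 alone (0.113%). These calls rest on libraries whose share of reads outside genes moved with genotype. With that share as a covariate neither passed, with adjusted p in DESeq2 of 0.429 for Abi3 and 1.0 for Gngt2, while the fitted log2 fold changes were -5.89 and -6.13.

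**Figure D2:**
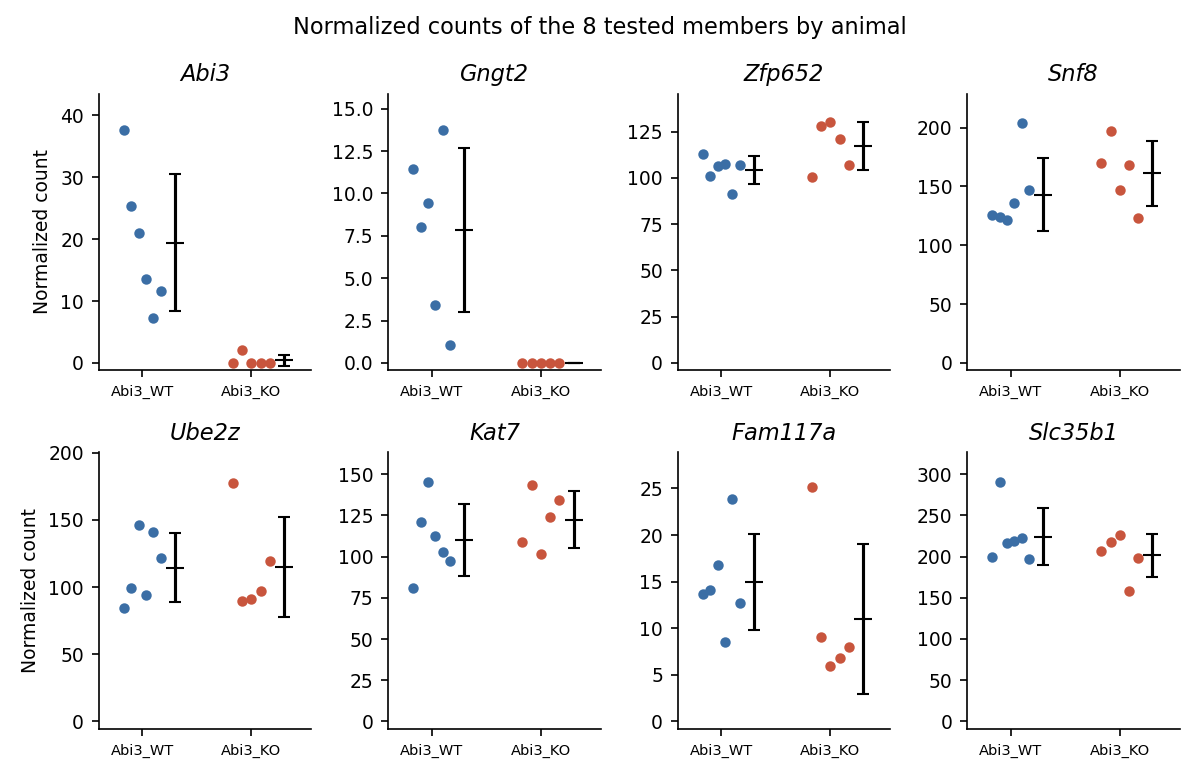
Normalized counts (vertical axes, linear from 0) of the 8 tested genes in each Abi3_WT (blue, n = 6) and Abi3_KO (red, n = 5) animal, with the mean and SD beside the points. The genotypes separate for Abi3 and Gngt2, and the points overlap for Zfp652, Snf8, Ube2z, Kat7, Fam117a and Slc35b1.

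Phospho1 lies on the other side of Abi3, from 95715264 to 95722973 on the plus strand, and encodes a phosphatase that starts mineral formation in bone and cartilage. It points toward Abi3, with 3′ ends 2066 bases apart, and the whole last exon of its canonical transcript lies inside exon 8 of Abi3 on the opposite strand. An annotated Zfp652 transcript on the same strand as Phospho1 also runs across it, sharing 1825 exon bases. Phospho1 had no read in any of the 11 animals, 0 of 42566557 reads in genes, which allows up to 0.0705 CPM and covers counting error only. Calcoco2 (95989742 to 96002818, minus strand), which encodes an autophagy receptor for damaged bacteria and mitochondria, likewise had 0 reads in all 11 animals. No comparison between genotypes could be made for either gene, and why they had no reads was not tested.

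Zfp652 (95603479 to 95725941, plus strand) encodes a zinc-finger repressor that works with corepressors of the ETO family. Its gene body reaches 5042 bases into Abi3 on the opposite strand through long annotated transcripts, while the canonical exons do not meet. The normalized level in Abi3_WT ran from 91.3 through a median of 106.8 to 113.0, and the Abi3_KO animals had 100.7, 128.3, 130.1, 120.8 and 107.0. Of the 5 Abi3_KO animals, 3 were above all Abi3_WT animals and 2 were inside their range. The log2 fold change was 0.17 (95% interval -0.12 to 0.46) with a DESeq2 adjusted p of 0.835, so no difference was detected at this spread.

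Snf8 and Ube2z form another pair with meeting 3′ ends, 192.4 and 222.9 kb from the start of Abi3. Snf8 (95925711 to 95938256, plus strand) encodes a subunit of ESCRT-II, which sorts ubiquitinated cargo into endosomal vesicles. Ube2z (95937207 to 95956244, minus strand) encodes a ubiquitin-conjugating enzyme that is charged by Uba6. The genes overlap by 1050 bases, and the last exon of Snf8, 236 bases, lies within the last exon of Ube2z on the opposite strand. Because counting used the strand, reads of the pair were kept apart.

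The Snf8 level was 142.9 ± 31.2 (SD) in the 6 Abi3_WT and 161.0 ± 27.7 (SD) in the 5 Abi3_KO animals, and all 5 Abi3_KO animals were inside the Abi3_WT range of 121.3 to 203.5. The log2 fold change was 0.17 (95% interval -0.16 to 0.49, DESeq2 adjusted p = 0.871). Leaving out 1 animal gave 0.09 (Abi3_KO replicate 2) to 0.30 (Abi3_WT replicate 5). Ube2z had mean normalized counts of 114.4 ± 25.9 (SD) in the 6 Abi3_WT and 114.9 ± 36.9 (SD) in the 5 Abi3_KO animals, and 1 Abi3_KO animal, replicate 1 at 177.2, was above the Abi3_WT range. Its log2 fold change of 0.01 (95% interval -0.39 to 0.41, DESeq2 adjusted p = 1.0) changed sign in limma, with TMM factors and with the covariate.

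The remaining genes lie beyond Zfp652, 457.9 to 532.2 kb from the start of Abi3. Kat7 (95165085 to 95201072, minus strand) encodes the acetyltransferase of the HBO1 complex, which acetylates histone H3 and H4 at genes and replication origins. Its level was 110.0 ± 22.1 (SD) in the 6 Abi3_WT and 122.5 ± 17.3 (SD) in the 5 Abi3_KO animals, and all Abi3_KO animals were inside the Abi3_WT range. The log2 fold change was 0.15 (95% interval -0.18 to 0.48, DESeq2 adjusted p = 0.889). The fit with the share of reads outside genes turned this to -0.19.

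Slc35b1 (95275452 to 95282609, plus strand) encodes the carrier that brings ATP into the endoplasmic reticulum. Its mean was 224.1 ± 34.1 (SD) in the 6 Abi3_WT and 201.3 ± 26.4 (SD) in the 5 Abi3_KO animals, of which 1 animal was below the Abi3_WT range and 4 were inside it. The log2 fold change was -0.16 (95% interval -0.42 to 0.10, DESeq2 adjusted p = 0.829). Leaving out 1 animal gave -0.20 (Abi3_KO replicate 3) to -0.07 (Abi3_WT replicate 2), and the covariate fit gave -0.48.

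Fam117a (95227796 to 95272698, plus strand) was measured with few reads, 5 to 33 per animal, and its function is little described. The Abi3_KO animals had 25.2, 9.09, 5.97, 6.78 and 7.97 normalized counts, against 8.52 at the lowest, 13.9 at the median and 23.9 at the highest in Abi3_WT. Thus 3 Abi3_KO animals were below the Abi3_WT range, 1 was inside it and replicate 1 was above it. The log2 fold change was -0.44 (SE 0.480, 95% interval -1.38 to 0.50), with a DESeq2 adjusted p of 0.888. Without Abi3_KO replicate 1 it was -1.004 (DESeq2 adjusted p = 0.623), without Abi3_WT replicate 5 it was -0.25 and without Abi3_KO replicate 3 it was -0.29. With the off-gene share as a covariate it was -1.21.

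Over these 6 neighbours other than Gngt2 the log2 fold changes ran from -0.44 to 0.17, with a median of 0.08 beside a median of -0.003 over all genes tested. Abi3_KO was higher in 4 and lower in 2, none had an unadjusted p under 0.05, and the lowest adjusted p in DESeq2 was 0.829. None of the 6 passed in any of the 20 alternative fits that gave it an adjusted p, edgeR and limma included; Fam117a had one in 18 of them, since DESeq2's own filter gave it none. The widest interval among them, that of Fam117a, reached down to -1.38, so decreases of the size fitted for Abi3 and Gngt2 lie outside the intervals of all 6.

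The question of how far from Abi3 lower expression could be found was then addressed with every gene tested nearby, by distance between gene starts. Within 250 kb the files list 23 genes, of which 8 were tested and 12 had no read in any animal. Besides the genes above, Phb1, a mitochondrial prohibitin, had a log2 fold change of -0.04 (SE 0.226), Zfp652os, an antisense transcript of Zfp652, 0.02 (SE 0.624) and Atp5mc1, a subunit of mitochondrial ATP synthase, 0.20 (SE 0.190). Their adjusted p in DESeq2 were 0.989, 1.0 and 0.860. Abi3 and Gngt2 were the 2 of these 8 genes that passed.

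Within 1 Mb, 2 of 23 tested genes passed (8.70%), again Abi3 and Gngt2. The log2 fold changes of the other 21 ran from -1.01 to 0.57 with a median of 0.01, 11 of them above 0 and 10 below. One of the 21 had an unadjusted p under 0.05, Col1a1, the collagen chain of connective tissue, at a log2 fold change of -0.93 (SE 0.436, adjusted p = 0.528 in DESeq2). Between 250 kb and 1 Mb none of 15 tested genes passed in DESeq2. The nearest tested protein-coding genes on either side of the Abi3 and Gngt2 pair, Zfp652 and Snf8, were among those without a detected difference.

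Within 10 Mb, 3 of 278 tested genes passed. The third was Gm10039, a processed pseudogene 4519.7 kb from Abi3 (log2 fold change -4.63, SE 0.770, adjusted p = 1.1e-05 in DESeq2). Its level was 0 to 63.6 normalized counts in Abi3_WT, where 1 animal had none, and 0 to 2.28 in Abi3_KO, so the genotypes overlapped. Its sequence is 98.8% identical over 415 aligned bases to a transcript of Atp5mc1, so its counts are uncertain. Hcrt, a hypothalamic peptide gene 4920.5 kb away that was named after its values were seen, had a fitted log2 fold change of -5.20 and an adjusted p of 0.0954, and it passed in edgeR at 0.0113.

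By distance, 1 of 102 genes tested passed at 1 to 5 Mb, lower in Abi3_KO, and 0 of 153 at 5 to 10 Mb. Farther away on the chromosome 2 of 979 passed, both higher in Abi3_KO. An unadjusted p under 0.05 was found for 9 of 102 genes (8.82%) at 1 to 5 Mb and 11 of 153 (7.19%) at 5 to 10 Mb, beside 8.58% of all genes tested. With DESeq2's own filter on low means, at 0.05 or 0.1, the genes that passed within 10 Mb were Cavin1, at 5128.4 kb, and Rab5c, at 4895.7 kb. Cavin1 was lower in Abi3_KO (log2 fold change -0.66) and Rab5c was higher (0.39). The log2 fold change was within 0.5 of 0 in 82.0% of the 278 genes and in 77.8% of all genes tested. In all, 5 of 1257 genes tested on chromosome 11 passed (0.398%), 3 lower and 2 higher in Abi3_KO.

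**Figure D3:**
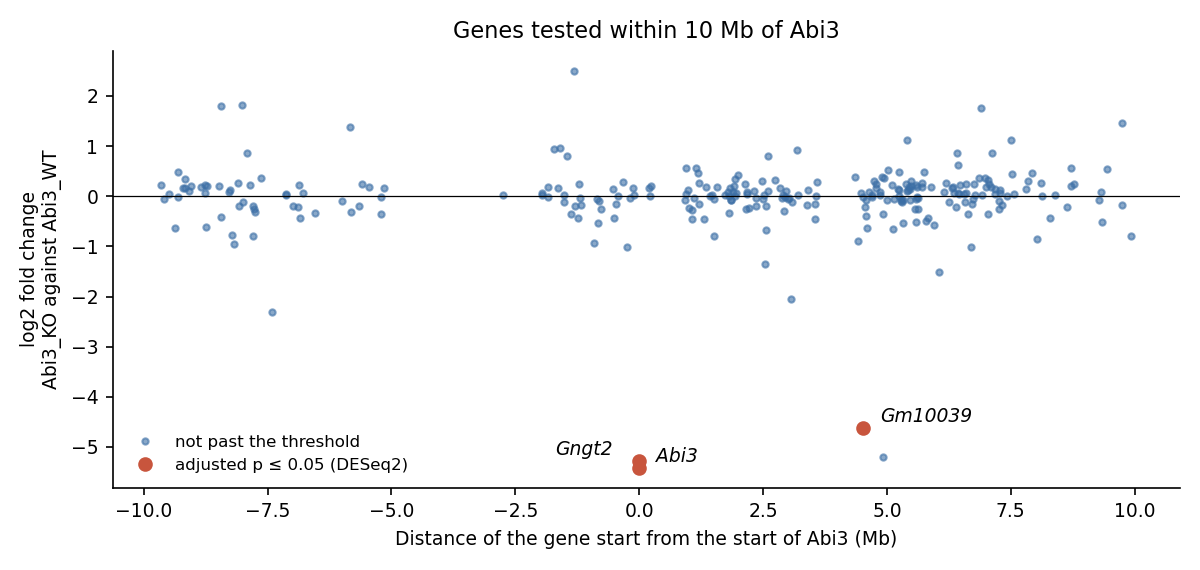
Log2 fold change of Abi3_KO against Abi3_WT in DESeq2 (vertical axis) against the distance of the gene start from that of Abi3 in Mb (horizontal axis) for 278 genes. Red points are the 3 genes past the threshold, Abi3, Gngt2 and Gm10039; the blue point near them, at -5.20, is Hcrt.

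Gene products that act with the 10 proteins were examined next, from lists of 55 genes. Of these, 53 were tested and none passed in DESeq2, edgeR or limma. An unadjusted p under 0.05 in DESeq2 was found for 8 of 53 genes, a higher share than the 8.58% (1512 of 17626) of all genes tested. Of these 8 genes, 4 were in the ABI family and WAVE complex list. The median log2 fold change was 0.05, with 34 genes above 0, beside -0.003 and 8731 of 17626 over all genes tested.

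The ABI family and WAVE complex list holds the relatives and partners of Abi3. All 10 genes were tested, 9 were above 0, the median was 0.19 and 4 had an unadjusted p under 0.05 in DESeq2. Over all genes tested, 8731 of 17626 were above 0, the median was -0.003 and 8.58% had an unadjusted p under 0.05. Abi2, a paralogue that fills the same place in the complex, had mean normalized counts of 1056.7 ± 77.1 (SD) in the 6 Abi3_WT and 1074.9 ± 71.3 (SD) in the 5 Abi3_KO animals (log2 fold change 0.02, DESeq2 adjusted p = 0.975). Cyfip2, the subunit that binds Rac, had a log2 fold change of 0.11 and Nckap1, its scaffold partner, 0.19, with adjusted p in DESeq2 of 0.839 and 0.657. Abi1, the other paralogue, had a log2 fold change of 0.27 (unadjusted p = 0.0479 and adjusted p = 0.575 in DESeq2). Wasf3, a WAVE protein, had the lowest adjusted p of the list, 0.343, at a log2 fold change of 0.29. Its 5 Abi3_KO animals, from 205.0 normalized counts, were all above the Abi3_WT animals, which reached 200.8. The genotypes likewise did not overlap for 1.04% of all genes tested.

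The lists for Gngt2 hold other gamma subunits and the beta subunits they bind. Of 11 gamma subunit genes 10 were tested, none passed in DESeq2, edgeR or limma, 2 had an unadjusted p under 0.05 and 7 were above 0. Over all genes tested in DESeq2, 8.58% had an unadjusted p under 0.05 and 8731 of 17626 were above 0. Gng3 had a log2 fold change of 0.17, Gng7, a subunit of striatal and cortical neurons, -0.32 and Gng2 0.31, with DESeq2 adjusted p of 0.623, 0.519 and 0.531. Of 5 beta subunit genes 4 were tested and none passed, with 1 at an unadjusted p under 0.05. Gnb1, Gnb2 and Gnb5 had log2 fold changes of 0.07, 0.21 and -0.01.

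The other partner lists gave no call in DESeq2, edgeR or limma. For Phospho1 (pyrophosphate and mineral genes) 5 genes were tested, with 0.16 for Phospho2, -0.03 for Ank and 0.47 for Spp1 on the log2 scale. For Zfp652 the 3 ETO family genes lay between -0.05 and 0.08. For Snf8, the ESCRT-II partners Vps36 and Vps25 had -0.16 (SE 0.152) and 1.11 (SE 0.752), the latter at a mean of 4.50 normalized counts. For Ube2z, Uba6 had 0.05 and Birc6 -0.07. Of the 5 autophagy receptors related to Calcoco2, 3 were above 0 (Sqstm1 0.20, Nbr1 0.18 and Tax1bp1 0.09). The other 2 were below (Calcoco1, the closest relative, -0.38 and Optn -0.21). An unadjusted p under 0.05 in DESeq2 was found for 1 of the 5, beside 8.58% of all genes tested. The 8 genes of the HBO1 complex of Kat7 ran from -0.49 to 0.21, and Jade1, Jade2 and Meaf6 lay between -0.02 and 0.01. The relatives of Fam117a and Slc35b1 included Fam117b at 0.30, Slc35b4 at -0.002 and Slc35b2 at 0.09.

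**Figure D4:**
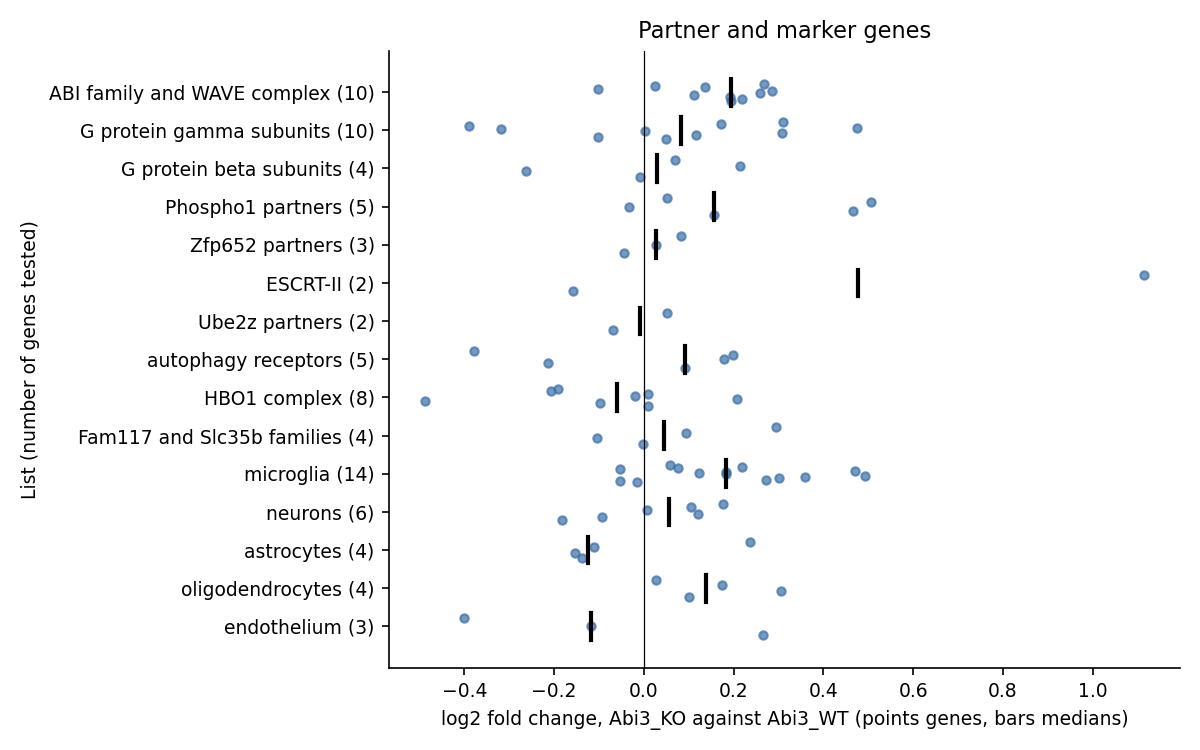
Log2 fold change of Abi3_KO against Abi3_WT in DESeq2 (horizontal axis) for the tested genes of each partner and cell type marker list (rows, with the number of genes); points are genes and bars are medians. No gene shown passed the threshold, and the medians of the ABI and WAVE list and of the microglial markers were 0.19 and 0.18.

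Since Abi3 is known mainly from microglia, the levels of cell type markers were set beside the decrease. Of 15 microglial markers 14 were in the files, and none of them was at 0 in any animal. Their summed level was 2574 to 3488 normalized counts in Abi3_WT and 2787 to 3946 in Abi3_KO, where 1 animal was above the Abi3_WT range and none was below it. No marker passed in DESeq2, edgeR or limma, 3 had an unadjusted p under 0.05 in DESeq2 and 11 were above 0, with a median of 0.18. Over all genes tested, 8.58% had an unadjusted p under 0.05 and 8731 of 17626 were above 0. Without Abi3_WT replicate 1, C1qa, a complement gene of microglia, passed at a log2 fold change of 0.56 (DESeq2 adjusted p = 0.0459). Fewer cells of a type and less RNA per cell cannot be told apart in bulk cortex.

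Per 1000 reads of microglial markers, Abi3 had 2.50 to 10.8 reads in Abi3_WT and 0 to 0.638 in Abi3_KO. Gngt2 had 0.411 to 4.74 reads on the same scale in Abi3_WT and 0 in Abi3_KO. The genotypes did not overlap for either gene on this scale. Among microglial markers with high counts, Cx3cr1 and Tyrobp had log2 fold changes of 0.08 and 0.30, with adjusted p in DESeq2 of 0.933 and 0.581.

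Marker genes of other cell types gave no call in DESeq2, edgeR or limma beside the 10 genes. The summed level of 6 neuronal markers was 14427 to 17065 in Abi3_WT and 16094 to 17686 normalized counts in Abi3_KO. Of the 6, 1 had an unadjusted p under 0.05 in DESeq2, beside 8.58% of all genes tested. Astrocyte markers summed to 2011 to 2819 and 2042 to 2658, oligodendrocyte markers to 6535 to 8879 and 7135 to 9807, and endothelial markers to 328.9 to 599.0 and 501.9 to 545.4. In each list the genotypes overlapped. Of the 6 neuronal markers 4 were above 0, among them Syt1 (log2 fold change 0.11), Snap25 (0.18) and Rbfox3 (0.01), and Gad2 was lowest at -0.18. The astrocyte markers, 1 of 4 above 0, included Slc1a3 (-0.15), Gfap (0.24) and Aqp4 (-0.11). Those of oligodendrocytes, 4 of 4 above 0, included Mbp (0.03) and Mag (0.10), and those of endothelium, 1 of 3 above 0, were Flt1 (0.27), Pecam1 (-0.12) and Cldn5 (-0.40). Their part in the levels of Abi3 and Gngt2 was not tested.

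Finally, genes were ranked by how closely their log2(normalized count + 1) followed that of Abi3 over the 11 animals, as a description, since the genotype split itself enters every value. The 5 with the highest Pearson r among 17625 genes were Gm43903 (0.941), Cavin1 (0.925), Cep78 (0.895), Gm11942 (0.894) and B630019A10Rik (0.891). Of these only Cavin1, a gene of plasma membrane caveolae that lies 5128.4 kb from Abi3, is on chromosome 11. It had 91.2 to 131.8 normalized counts in Abi3_WT and 54.2 to 92.9 in Abi3_KO, a log2 fold change of -0.66 with a DESeq2 adjusted p of 0.0638. Cavin1 passed with the stricter filter on low counts (0.0494), with DESeq2's own filter at 0.05 (0.0286) and 0.1 (0.0275), and without Abi3_WT replicate 4 (0.0395) or Abi3_KO replicate 2 (0.0347). Gngt2 was at rank 18 with 0.871. Slc35b1 was at rank 2171 (0.436) and Fam117a at 3055 (0.367), and the remaining tested neighbours had negative values, from -0.15 for Ube2z to -0.40 for Snf8.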

How the data were processed

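Per the labels and the study's methods, the authors trimmed single-end QuantSeq reads, aligned them with STAR (2.7.3a) to GRCm39 and counted uniquely aligned reads per Ensembl gene by strand with HTSeq (0.9.1). The deposited values are raw read counts, 1 table per animal, with no stated collapse of PCR copies, so floors cover counting error only. Tallies of unassigned reads were left out of library sizes; reads aligned to several places were 65.2% to 72.2% and reads outside genes 9.21% to 14.1% of all tallied. Names and positions came from a later GENCODE annotation of the same build, which matched 98.0% of identifiers.

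Here DESeq2 (1.42.0, R 4.3.3) was fitted with genotype as the only term on genes with at least 10 counts in total. Results were kept at a mean normalized count of at least 1.5, with Benjamini-Hochberg adjustment over these and a threshold of 0.05. DESeq2's own filter on low means was switched off, because the study's methods name no such filter. Log2 fold changes are Abi3_KO against Abi3_WT, with 95% intervals. Alternatives were edgeR (4.0.16), limma (3.58.1), TMM factors, other filters, a covariate, a replicate block and leaving out each animal. Fits were tested on simulated data, and pseudogene similarity used BLAST (2.17.0).

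The genes, lists, tests and the switched-off filter were chosen with earlier results of these data known. Genes named were the 10 genes, others within 250 kb with a mean of at least 1.5, genes past the threshold or with the highest means in each list, and the 5 most like Abi3; Col1a1, Hcrt, Rab5c, C1qa, and list genes cited otherwise were named after their values were seen. Some genes of the lists are not reported here.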

Additional observations from a re-analysis of the deposited data

Results flagged for a closer look

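The 10 genes in each genotype gave 15 groups with any spread, since 5 groups held only zeros. In 4 of the 15 the highest animal stood apart from the others by more than Dixon's 95% critical value; chance gives about 1 in 20 groups, or 0.75 here. Abi3 in Abi3_KO replicate 2 was at 2.02 normalized counts, from 2 reads, while the other 4 Abi3_KO animals had none. Fam117a in Abi3_KO replicate 1 was at 25.2, with the next animal at 9.09. Snf8 in Abi3_WT replicate 5 was at 203.5, with the next at 147.1, and Slc35b1 in Abi3_WT replicate 2 was at 290.4, with the next at 222.4. The first rests on a count under the floor of 3 beside 4 zeros, where any read stands apart by construction, and the reason for the others was not tested.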

How the results depend on the processing

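Abi3 and Gngt2 were lower in every fit that tested them, with log2 fold changes from -6.54 to -4.53 and from -6.13 to -3.53. Of the 10 genes, 2 passed in edgeR, with TMM factors, without a filter on low counts and in all 11 fits without 1 animal. With limma 1 passed (Abi3), and with a stricter filter 1 (Abi3, since Gngt2 was not tested). With DESeq2's filter at 0.05 or 0.1, 0 passed, since both genes had means under its thresholds of 70.4 and 77.1 and were given no adjusted p. With the off-gene share (reads outside genes per 100 in genes) as a covariate 0 passed; the cause was not tested. The same numbers hold for genes within 1 Mb.

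Over all genes 58 passed, against 37 in edgeR, 20 in limma, 95 and 94 with the filters at 0.05 and 0.1, 3 with the covariate and 22 to 79 without 1 animal, lowest without Abi3_KO replicate 5; it was also more than 1.5 times lower without Abi3_KO replicate 2 (29), Abi3_WT replicate 1 (38) and Abi3_WT replicate 6 (36). Within 10 Mb the number was 3, against 1 in limma, 0 with the covariate and 3 to 5 without 1 animal, 5 without Abi3_WT replicate 4, where Cavin1 and Hcrt passed as well. Microglial markers past the threshold were 0 to 1 without 1 animal.

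Ube2z turned negative in limma (-0.0398), with TMM factors (-0.000209), with the covariate (-0.412) and in 5 fits without 1 animal (-0.205 to 0.0888 over all 11), and Kat7 with the covariate (-0.193). Scaling moved the median of all genes by less than 0.1.

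Replicate numbers are shared by both groups, but the animals differ, and only 1 of 5 pairs had a correlation of deviations over 0.1 (-0.0198 to 0.123). With the replicate block 14 genes passed, 1 of them among the 10 and within 1 Mb (Abi3); the adjusted p of Gngt2 was 0.0893. The paired differences were -20.6 normalized counts for Abi3 and -9.21 for Gngt2, each with an exact permutation p of 0.0625, the smallest 5 pairs allow. Depth limits the fold bounds of both genes.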
